A study of Homo sapiens with 6 samples.

Results

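The TAM family comprises 3 receptor tyrosine kinases, Tyro3, Axl and Mertk, and 2 ligands, Gas6 and protein S (Pros1). These 5 genes were chosen by family, starting from Mertk, which had been selected on its log2 fold change in the comparison described here, and each matched 1 of the 22989 genes of the count table by its symbol. By the paper's account, RNA was sequenced from MDA-MB-231 PTX-resistant BCSC, cells of a human triple-negative breast cancer line. These cells were selected for paclitaxel (PTX) resistance and sorted for high aldehyde dehydrogenase activity (breast cancer stem-like cells, BCSC). The groups were 3 libraries labelled LINC00115 KD, whose cells carry a short hairpin RNA against the lncRNA LINC00115, and 3 control libraries labelled WT, to ask which genes depend on LINC00115. Only 1 kind of control was sequenced, and the paper names only 1 hairpin for the knockdown in its plot of these genes. Effects of the hairpin or its vector cannot be told apart from those of the knockdown.

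TAM receptors sit on the cell surface and signal through an intracellular kinase domain. Gas6 and protein S bind with one end to phosphatidylserine, a lipid displayed by dying cells, and with the other to the receptor, so that a phagocyte can recognise and engulf the dying cell. Gas6 binds each of the receptors, whereas protein S acts on Tyro3 and Mertk. Mertk is best known from macrophages, where it serves engulfment and restrains inflammation, and Axl is well known in carcinoma cells with a mesenchymal state and drug resistance.

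The libraries held 36979221 to 38799331 counts. The samples are labelled human, but the symbols of the table are in mouse style, with 4650 Gm names and 1135 Rik names. Labels and symbols thus point to different species, and the values cannot be taken as levels of human genes. Symbols are given as the count table writes them, and no genome positions or sequences are attached to them. The table has 0 genes named LINC00115, so the knockdown could not be checked and each direction rests on the labels. Vim and Cd44, which mark mesenchymal breast cancer cells, were abundant in the controls (3418 ± 49.8 and 911 ± 45.8 normalized CPM, SD, n = 3), and Epcam was near 0 (0.0177 ± 0.0153). A list of 12 markers of the labelled cell line summed to between 4923 and 4976 normalized CPM in control and between 5549 and 5685 in KD. By the thresholds given below, 0 of the 8 tested were called lower and 3 higher, beside 9.98% and 10.2% of all genes tested. Without the fold threshold, 0 were lower and 7 higher, beside 36.7% of all genes tested in each direction. Their median log2 fold change was 0.78. Of the enzymes behind the aldehyde dehydrogenase sort, Aldh1a1 had 0.327 ± 0.119 and Aldh1a3 0.00885 ± 0.0153 normalized CPM in the controls. Normalized CPM are counts as a share of the library total (CPM) after TMM scaling, which aligns libraries on the bulk of their genes. They are not divided by gene length, so levels are compared between libraries and not between genes.

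Mertk was lower in the KD libraries, Axl was somewhat higher, Tyro3 and Pros1 were somewhat lower, and Gas6 was close to the limit of detection in both groups. Calls required a fold change over 2 and, in the quasi-likelihood test of edgeR, an adjusted p under 0.05. At these thresholds 9.98% of the 13497 genes tested were called lower and 10.2% higher. By the adjusted p alone, 36.7% were lower and 36.7% higher. Of the members, 4 entered the fit, 1 (Mertk) had a fitted fold change over 2 on the lower side and 0 on the higher side. The groups did not overlap for 4 of the 5 members, as was the case for 75.6% of the genes tested. Because the members were chosen with this contrast known, their values are given as a description and without a test.

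Mertk, the receptor of phagocytes, had 235, 266 and 191 counts in the control libraries and 4, 3 and 7 counts in the KD libraries. These counts correspond to 6.24, 7.05 and 5.05 normalized CPM in the controls and to 0.103, 0.0817 and 0.184 normalized CPM in the KD libraries. All KD libraries lay far below all control libraries. The group means were 6.11 ± 1.00 and 0.123 ± 0.0541 normalized CPM (SD, n = 3 each). The fitted log2 fold change was -5.59 with a standard error of 0.33. Summed over libraries, Mertk was 49.5-fold lower in KD, with a 95% interval of 29.3 to 91.0 that covers counting error only. The residual counts were not zero: the exact Poisson intervals of the single KD libraries ran from 1.09 to 10.2, from 0.619 to 8.77 and from 2.81 to 14.4 counts. Only 16 genes had a lower fitted log2 fold change, which placed Mertk at rank 17 of 13497. This high rank follows from the choice of Mertk on its log2 fold change.

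**Figure D1:**
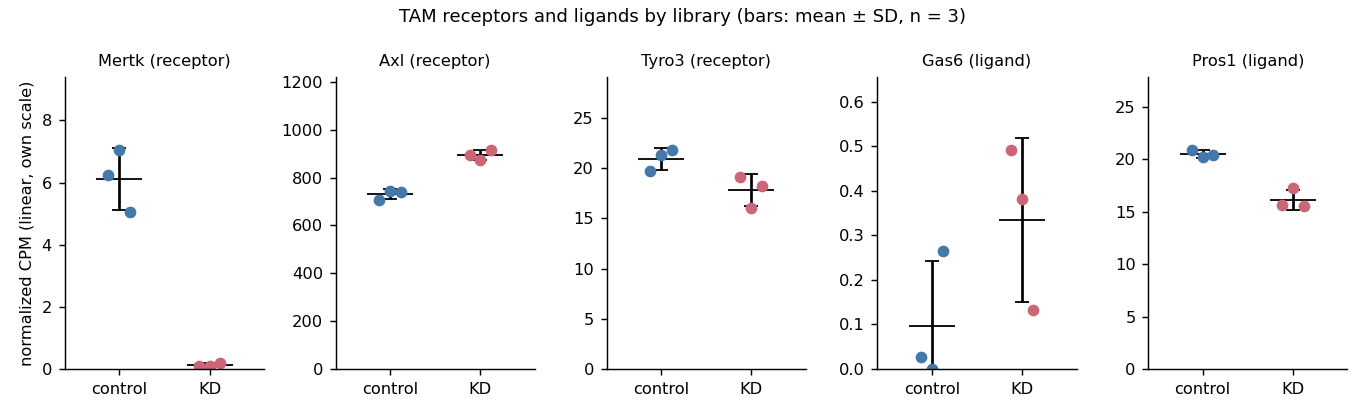
Normalized CPM (linear vertical axes from 0, a separate scale for each gene) of the 5 members in the 3 control and 3 KD libraries, 1 point per library, with mean and SD as black bars. Mertk lies between 5.05 and 7.05 in control and between 0.0817 and 0.184 in KD, Axl lies between 707 and 745 in control and between 875 and 915 in KD, Tyro3 and Pros1 are shifted downward without overlap, and the Gas6 groups overlap.

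Axl had 26632, 28127 and 28021 counts in the controls and 34687, 32116 and 34767 in the KD libraries. In normalized CPM these were 707, 745 and 742 against 897, 875 and 915. Every KD library was above every control library. The means were 731 ± 21.1 and 896 ± 20.3 normalized CPM (SD, n = 3 each), and the log2 fold change was 0.29 ± 0.03 (standard error), or 22.5% more. Axl therefore stayed well under the fold change of 2 used for calls, and its direction was opposite to that of Mertk.

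Tyro3, the TAM receptor best known from the nervous system, had 742, 803 and 824 counts in the controls and 739, 590 and 694 in the KD libraries. The normalized CPM were 19.7, 21.3 and 21.8 in the controls and 19.1, 16.1 and 18.3 in KD. The groups were separated only narrowly, with the highest KD library at 19.1 and the lowest control library at 19.7. The means were 20.9 ± 1.10 and 17.8 ± 1.57 normalized CPM (SD, n = 3 each), and the log2 fold change was -0.23 ± 0.09 (standard error).

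Among the ligands, Pros1, which encodes the anticoagulant protein S, had 787, 762 and 771 counts in the controls and 605, 633 and 590 in KD. This was 20.9, 20.2 and 20.4 normalized CPM against 15.6, 17.2 and 15.5. No KD library reached the lowest control library. The means were 20.5 ± 0.361 and 16.1 ± 0.957 normalized CPM (SD, n = 3 each), and the log2 fold change was -0.34 ± 0.08 (standard error), or 21.3% less.

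Gas6, the ligand shared by the whole family, had 1, 0 and 10 counts in the controls and 19, 14 and 5 in the KD libraries. It did not pass the low-count filter and has no fitted value. The groups overlapped, since control replicate 3 had more counts than KD replicate 3, and at this depth the 0 in control replicate 2 allows up to 3 counts as a one-sided 95% limit (3.69 as the end of a two-sided exact Poisson interval). The normalized CPM were 0.0971 ± 0.146 in control and 0.335 ± 0.184 in KD (SD, n = 3 each), and the ratio of summed counts was 3.45 (95% counting interval 1.73 to 7.48, which does not include the spread between libraries). Without control replicate 3 the log2 of this ratio moved from 1.79 to 4.66, so a single library decided its size.

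Ratios of 2 genes within a library do not depend on the scaling between libraries. Per 100 Axl reads, the control libraries held 0.882, 0.946 and 0.682 Mertk reads and the KD libraries 0.0115, 0.00934 and 0.0201. Tyro3 reads per 100 Axl reads went from 2.86 ± 0.0774 to 1.99 ± 0.147 (SD, n = 3 each), and Pros1 reads per 100 Axl reads from 2.81 ± 0.131 to 1.80 ± 0.146. Relative to Axl, there were thus fewer reads of Mertk, Tyro3 and Pros1 in each KD library. Gas6 reads per 100 Pros1 reads were 0.127, 0 and 1.30 in the controls and 3.14, 2.21 and 0.847 in KD, where the groups overlapped. Reads of different genes are not levels, because gene lengths were not used, and only the shift between the groups can be read from these ratios.

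**Figure D2:**
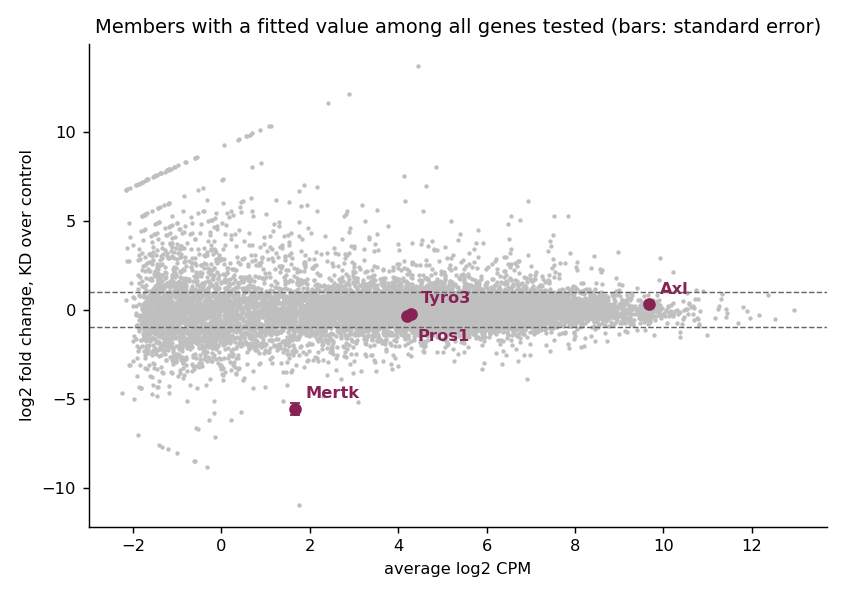
Log2 fold change of KD over control against average log2 CPM for the 13497 genes tested (grey points), with the 4 members that have a fitted value in purple (bars, standard error) and a fold change of 2 marked by dashed lines. Mertk lies at -5.59 below the main cloud, while Axl (0.29), Tyro3 (-0.23) and Pros1 (-0.34) lie between the dashed lines.

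Genes with profiles close to those of the members were sought by the distance between log2 normalized CPM over the 6 libraries, each profile centred on its own mean. The 3 genes nearest to Mertk were Ppp1r3c, a glycogen-targeting phosphatase subunit (distance 0.589), Dlx3, a homeobox factor (0.722), and Prdm1, the transcriptional repressor Blimp-1 (0.756). Ppp1r3c had 108, 91 and 91 counts in the controls and 1, 1 and 3 in KD, and Dlx3 had 81, 88 and 81 against 0, 1 and 2. Prdm1 went from 16.5 ± 2.32 to 0.448 ± 0.0844 normalized CPM (SD, n = 3 each). Nearest to Axl were Ywhab (0.0273), Crk (0.0323) and Neurl3 (0.0324), nearest to Tyro3 were Cgrrf1 (0.0874), Pxylp1 (0.0931) and Mcrip1 (0.0949), and nearest to Pros1 were Dpysl2 (0.0455), Ifi202b (0.0486) and Rfx5 (0.0545). Ifi202b belongs to a multigene family whose reads may be shared. Distances over 6 libraries in 2 groups mostly rank genes by a similar difference between the groups.

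Around the receptors, 8 lists of genes were examined, with 108 genes tested. Of these, 2 were called lower (1.85%) and 14 higher (13%), beside 9.98% and 10.2% of all genes tested. The median log2 fold change was 0.11, beside -0.0061 over all genes tested. The lists hold genes that mature the ligands, act as other bridging ligands, expose phosphatidylserine, shed receptors, relay the signal, drive engulfment, bind phosphatidylserine as other receptors, or regulate TAM genes.

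Gas6 and protein S need a vitamin K-dependent carboxylation of their lipid-binding end. Of 12 genes tested in the list of ligand maturation and other proteins of this kind, 0 were called lower and 2 higher. Among all genes tested, 9.98% were called lower and 10.2% higher. When the fold threshold was left out and only edgeR's adjusted p (under 0.05) was used, 5 were lower and 5 higher, beside 36.7% of all genes tested in each direction. Ggcx, the carboxylase itself, went from 21.4 ± 0.848 to 14.5 ± 1.55 normalized CPM (SD, n = 3 each), and the log2 fold change was -0.56 ± 0.09 (standard error). Its groups did not overlap, as was the case for 75.6% of all genes tested. Vkorc1, which regenerates vitamin K, had a log2 fold change of -0.49 and its paralog Vkorc1l1 one of 0.75. Mgp, an inhibitor of calcification that carries the same modification, rose from 3.93 ± 1.10 to 8.34 ± 1.45 normalized CPM (log2 fold change 1.09, standard error 0.18, adjusted p = 1.57e-06, edgeR). Its change was under a fold of 2 without control replicate 1 (0.88) and without KD replicate 3 (0.96). The other gene called higher was F7 (log2 fold change 2.09), at 0.764 normalized CPM in KD, and it is named because the count is small.

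Other proteins bridge phosphatidylserine or bind Mertk. Of this list 3 genes were tested and 0 were called in either direction, with 1 lower and 2 higher by edgeR's adjusted p alone, a threshold passed by 36.7% of all genes tested in each direction. Lgals3, encoding galectin-3, a reported Mertk ligand, went from 491 ± 13.5 to 565 ± 28.1 normalized CPM (log2 fold change 0.20). Mfge8, which bridges phosphatidylserine to integrins, went from 327 ± 9.50 to 256 ± 9.26 (SD, n = 3 each), and the log2 fold change was -0.35. Thbs1 lay just under the fold threshold, at 0.95. The C1q genes of phagocytes were not tested, with at most 0.0785 normalized CPM as the mean of a group.

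Of 8 genes for phosphatidylserine exposure, 0 were called lower and 1 higher, beside 9.98% and 10.2% of all genes tested. The higher gene was Atp8a1, a flippase that returns the lipid to the inner leaflet, at 0.0442 normalized CPM in control and 0.778 in KD. The scramblase gene Ano6 had a log2 fold change of 0.09, and Tmem30a, the partner subunit of flippases, one of -0.52.

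The ectodomains of Axl and Mertk are shed by metalloproteases. Of 10 genes of this list, 0 were called lower and 1 higher, beside 9.98% and 10.2% of all genes tested. Adam10 and Adam17, the sheddases, had log2 fold changes of -0.44 and -0.45 (standard errors 0.04 and 0.04), with means of 196 ± 3.80 and 180 ± 3.09 normalized CPM in control and 145 ± 3.79 and 132 ± 1.94 in KD. Timp3, an inhibitor of both, rose from 1, 7 and 9 counts in the controls to 135, 188 and 206 counts in KD, which was 0.150 ± 0.110 against 4.68 ± 1.04 normalized CPM (log2 fold change 4.93, standard error 0.38, adjusted p = 1.32e-13, edgeR). The KD libraries did not overlap the controls for either sheddase or for Timp3, as was the case for 75.6% of all genes tested.

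Of 32 receptor-proximal signalling genes, 0 were called lower and 5 higher (15.6%), beside 9.98% and 10.2% of all genes tested. By edgeR's adjusted p alone, 11 were lower and 18 higher, beside 36.7% of all genes tested in each direction. TAM receptors dampen inflammatory signalling together with the type I interferon receptor and induce the Socs proteins. Socs1, a feedback inhibitor of this pathway, rose from 11.1 ± 0.296 to 24.7 ± 1.58 normalized CPM (log2 fold change 1.15, standard error 0.09, adjusted p = 7.355e-14, edgeR), whereas Socs3 had a log2 fold change of -0.55, from 94.3 ± 2.47 to 64.2 ± 4.94. The receptor gene Ifnar1 went from 93.3 ± 2.64 to 64.2 ± 2.93 normalized CPM (log2 fold change -0.54), and Ifnar2 had one of 0.27.

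Among adaptors and kinases, the docking protein Gab2 rose from 5.92 ± 0.715 to 14.5 ± 1.53 normalized CPM (log2 fold change 1.29, adjusted p = 1.48e-11, edgeR) and the phospholipase Plcg2 from 49.4 ± 3.52 to 106 ± 3.23 (1.11, adjusted p = 7.93e-20). Also called higher was Pik3cb, a catalytic subunit of PI3K, at 1.03, which was 0.99 with upper quartile scaling and without KD replicate 3, and 0.98 without control replicate 2. Grb2, the adaptor recruited by the receptors, had a log2 fold change of -0.07, Akt1 of 0.05, Src of 0.95 and the phosphatase Ptpn11 of 0.57.

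Downstream of Mertk, engulfment runs through Crk, Elmo, Dock1 and Rac1. Of 13 genes tested, 0 were called lower and 1 higher, beside 9.98% and 10.2% of all genes tested. Elmo1, which forms a Rac exchange factor with Dock1, rose from 4.06 ± 0.791 to 8.64 ± 0.904 normalized CPM (log2 fold change 1.09, standard error 0.16, adjusted p = 2.10e-07, edgeR). Without control replicate 3 its log2 fold change was 0.95, under the fold threshold. Its paralog Elmo2 had a log2 fold change of -0.23, Dock1 of 0.15, Rac1 of 0.21 and Crk of 0.31.

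Of 11 tested receptors for phosphatidylserine outside the family, 0 were called lower and 3 higher, beside 9.98% and 10.2% of all genes tested. Cd300lb, an activating receptor of myeloid cells, rose from 3.72 ± 0.154 to 12.9 ± 1.31 normalized CPM (log2 fold change 1.79, adjusted p = 3.91e-14, edgeR). Ager rose from 0.645 ± 0.0396 to 1.99 ± 0.387 (1.62, adjusted p = 0.000165), and the third gene was Cd36, at 0.747 normalized CPM in KD. The integrin subunits Itgav and Itgb3, which work with Mfge8, had log2 fold changes of -0.47 and -0.67, and Itgb5 had one of 0.53. Ager is also a gene of lung alveolar cells, and lung marker genes were higher in the same libraries. A link between Ager and these marker genes was not tested.

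Liver X receptors and Hippo pathway factors are known to act on Mertk and Axl. Of 19 transcription factors tested, 2 were called lower and 1 higher, beside 9.98% and 10.2% of all genes tested. Nr1h2 went from 61.6 ± 2.51 to 49.5 ± 1.41 normalized CPM (log2 fold change -0.32), and Nr1h3 from 3.97 ± 0.944 to 5.26 ± 0.897 (0.41, adjusted p = 0.0530, edgeR), where the groups overlapped. Tead2, a partner of the Hippo effectors, fell from 109 ± 1.72 to 47.5 ± 3.55 normalized CPM (log2 fold change -1.20, standard error 0.05, adjusted p = 7.57e-21, edgeR), whereas Tead1 had a log2 fold change of 0.32 and Tead4 of 0.84. Yap1 and Wwtr1 had -0.24 and -0.37. The other gene called lower was Pparg (-2.57), a nuclear receptor of lipid metabolism at 0.751 normalized CPM in control, which is named because the count is small.

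**Figure D3:**
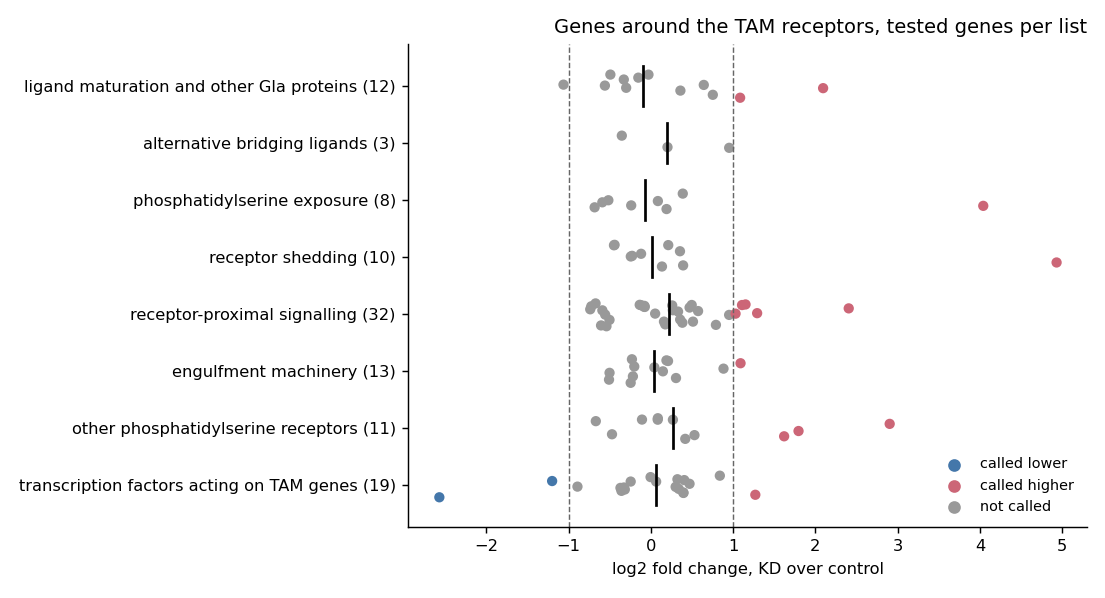
Log2 fold change of KD over control for the 108 tested genes in 8 lists around the TAM receptors, 1 point per gene, with the number tested in parentheses, the list's median as a black line and a fold change of 2 as dashed lines. The 2 genes called lower (blue) are both transcription factors, and the 14 called higher (red) come from 7 of the lists, with Timp3 farthest to the right at 4.93.

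The TAM receptors were placed beside the other receptor tyrosine kinases, of which 32 were tested. Of these, 6 were called lower (18.8%) and 3 higher (9.38%), beside 9.98% and 10.2% of all genes tested, and their median log2 fold change was -0.14. Ephb3, an ephrin receptor, fell from 9.19 ± 1.13 to 1.94 ± 0.479 normalized CPM (log2 fold change -2.24, standard error 0.18, adjusted p = 4.43e-13, edgeR). Pdgfra, a receptor of mesenchymal cells, fell from 177 ± 9.92 to 74.5 ± 1.39 (-1.25), Fgfr3 from 18.9 ± 2.17 to 8.06 ± 0.851 (-1.23) and Ror1 from 1.32 ± 0.0709 to 0.416 ± 0.191 (-1.66). Kit (-2.23) and Tie1 (-1.61) were the other 2 and had under 1 normalized CPM in both groups. The Kit groups overlapped, and its adjusted p was 0.0541 without control replicate 1 (edgeR). Tie1 lost its call without control replicate 1 or 3 and without KD replicate 1 or 3, with adjusted p from 0.0532 to 0.0997 (edgeR).

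Epha8 rose from 3.51 ± 0.570 to 15.3 ± 1.57 normalized CPM (log2 fold change 2.12, adjusted p = 5.18e-16, edgeR) and Epha4, another ephrin receptor, from 1.21 ± 0.439 to 5.27 ± 0.618 (2.12, adjusted p = 1.78e-09). The third was Erbb3 (2.60), at 0.762 normalized CPM in KD. The kinases closest to the TAM family are Met, the receptor of hepatocyte growth factor, and Mst1r. Met went from 215 ± 7.14 to 280 ± 5.33 normalized CPM (log2 fold change 0.38), and Mst1r had at most 4 counts in a library and was not tested. The fitted log2 fold change of Mertk, -5.59, lay below that of each of these 32 kinases, of which the lowest was -2.24, while Axl and Tyro3 lay in the middle of their range. This order is a description, since Mertk was chosen for its decrease.

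**Figure D4:**
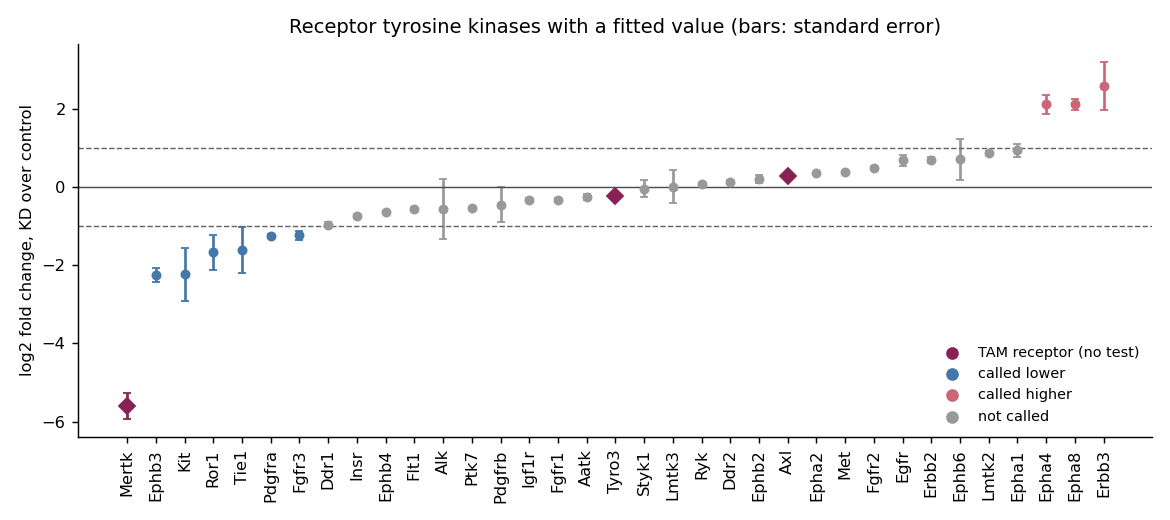
Log2 fold change of KD over control (vertical axis; bars, standard error) for the 3 TAM receptors (purple diamonds, not tested here) and 32 other receptor tyrosine kinases, ordered by value. Mertk stands at the lower end at -5.59, the other kinases run from -2.24 to 2.60, and Tyro3 and Axl lie between -0.23 and 0.29.

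In bulk RNA, fewer cells of a type and less RNA per cell cannot be told apart, and Mertk is a gene of macrophages, so marker lists of other cells were summed in each library. The 15 macrophage markers summed to between 63.6 and 76.7 normalized CPM in control and between 104 and 109 in KD, mostly from Cd68 and Cd14. Of 7 tested, 2 were called lower and 2 higher, beside 9.98% and 10.2% of all genes tested. Mrc1, the mannose receptor, went from 7.39 ± 1.44 to 1.17 ± 0.383 normalized CPM (log2 fold change -2.65) and Cx3cr1, the fractalkine receptor, from 1.64 ± 0.572 to 0.0269 ± 0.0272 (-5.79), which is the direction of Mertk. Cd14 (1.70) and Lyz2 (3.04) had the opposite direction. The defining markers Adgre1, Csf1r, C1qa and Ptprc were near 0 in both groups, with means of at most 0.255 normalized CPM.

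Endothelial markers, which bear on Pros1 and Gas6 because endothelium makes both ligands, summed to between 9.74 and 11.7 normalized CPM in control and between 66.0 and 67.6 in KD. Nearly all of this came from Cdh5, at 57.8 ± 1.45 in KD, while Pecam1 had 0.324 ± 0.153 and Kdr 0.126 ± 0.127. Of 6 tested, 1 was called lower and 2 higher, beside 9.98% and 10.2% of all genes tested. Fibroblast and mural markers summed to between 175 and 194 in control and between 77.1 and 79.3 in KD, mostly from Pdgfra, with 2 of 5 tested called lower and 1 higher. Hepatocyte markers, the main source of plasma protein S, summed to at most 0.790 normalized CPM, and 0 of 8 passed the low-count filter.

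Lung epithelium markers summed to between 1.09 and 1.32 normalized CPM in control and between 72.2 and 83.6 in KD, with 9 of 9 tested called higher. Kidney tubule markers summed to between 16.7 and 19.5 in control and between 42.3 and 46.3 in KD. Of 10 tested, 7 were called higher and 0 lower, beside 10.2% and 9.98% of all genes tested. These differences moved with the decrease of Mertk and the shifts of Axl, Tyro3 and Pros1, and their part in these results was not tested.

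**Figure D5:**
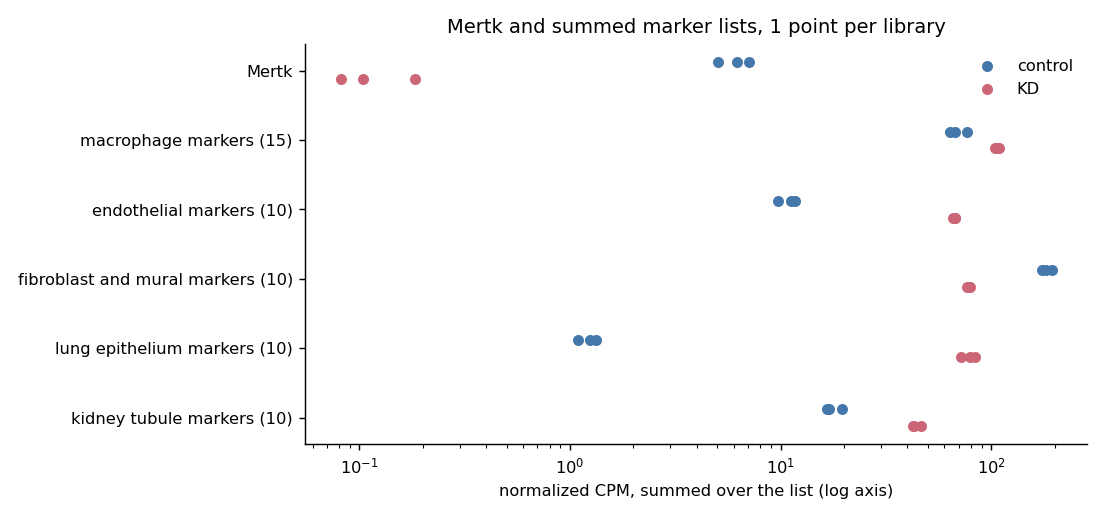
Normalized CPM on a log axis for Mertk and for the sums of 5 marker lists (number of genes in parentheses), 1 point per control library (blue) and KD library (red). Mertk and the fibroblast and mural sum are lower in KD, and the macrophage, endothelial, lung and kidney sums are higher, the lung sum by the widest margin (1.09 to 1.32 against 72.2 to 83.6).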

How the data were processed

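The authors deposited 1 table of whole-number read counts per gene, without normalization, for 3 LINC00115 KD and 3 WT libraries. The paper's methods name adapter trimming and HISAT2 with hg19, while the submitters' processing notes name HISAT2, featureCounts and hg38. Neither the gene annotation nor the strand setting is given in the sources used here, so reads of overlapping genes may be shared. The labels do not say whether libraries came from separate cultures, and p-values measure only the spread between them.

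All 22989 genes entered the library totals. The fit used edgeR 4.0.16 (R 4.3.3) with filterByExpr (minimum count 10, minimum total 15), TMM, quasi-likelihood test with the group only, and Benjamini-Hochberg adjustment over 13497 genes. Thresholds (adjusted p under 0.05, fold change over 2) follow the paper. Standard errors are the log2 fold change divided by the root of F. Library pairs of 1 group had a chi-square per degree of freedom of at least 3.88, above sampling noise. The fit was also run on simulated counts with known fold changes well over 2 and the same variability for every gene. Changes near the fold threshold for calls and smaller ones were not simulated.

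The members and lists were chosen with earlier results of these data known. Named from each list are called genes with at least 1 normalized CPM, up to 4 per direction, and 14 genes fixed by name. Genes named beyond this rule were picked after their values were seen. Some genes counted in the lists are not reported here by name. Profile distances used log2(CPM + 0.05). Alternatives were DESeq2 1.42.0, other scalings and filters, each replicate left out, and the replicate number as a block.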

Additional observations from a re-analysis of the deposited data

How the results depend on the processing

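The direction of each member's difference was the same under every alternative that gave a value. Fits that each lacked 1 library gave log2 fold changes of -5.98 to -5.37 for Mertk (-5.98 without KD replicate 3), from 0.27 to 0.32 for Axl, from -0.28 to -0.15 for Tyro3, from -0.38 to -0.31 for Pros1 and from 1.20 to 4.66 for Gas6. Upper quartile scaling gave 0.25 for Axl. A minimum of 10 counts in every sample removed Mertk and Gas6. It left 1 gene of the TAM lists called lower in place of 2, and 10 called higher in place of 14. F7, Atp8a1, Timp3 and Cd36, all called higher in the main fit, had no value under this filter. Of the other receptor tyrosine kinases it left 3 called lower in place of 6 and 2 called higher in place of 3. Without a fold-change threshold, 40 genes of the TAM lists were lower and 51 higher, and 14 other receptor tyrosine kinases were lower and 11 higher, beside 36.7% of all genes tested in each direction. With each library left out, the TAM lists held 2 to 4 lower genes (4 without KD replicate 1) and 12 to 14 higher, and the other kinases 4 to 7 lower and 3 to 4 higher. With the replicate number as a block (the replicate block), Mertk had -5.58 and the TAM lists 2 lower and 14 higher genes. Of the 25 genes called in these lists, 5 (Mgp, Pik3cb, Elmo1, Kit and Tie1) lost a call under an alternative, as given with their values, and 20 did not under the alternatives that gave them a value. Same-numbered libraries deviated together with correlations of -0.0062, -0.0076 and 0.0256, so the numbers do not pair the libraries. Depth limits Gas6, the KD counts of Mertk and other genes near 3 counts.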
